A study of Mus musculus with 6 samples.

Results

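Matricellular proteins are secreted into the extracellular matrix, where they act more as signals and as organisers of collagen than as structural fibres. The 10 genes described here are periostin (*Postn*) and those grouped around it, chosen by their symbols: *Postn*, *Tgfbi*, *Thbs1*, *Thbs2*, *Thbs3*, *Comp*, *Tnc*, *Sparc*, *Spp1* and *Cthrc1*. They are 10 of the 22063 genes in the deposited table, and each of the 10 had enough counts to be tested, as did 12862 genes in all. In the injured heart such proteins are scarce in resting tissue and are made in quantity by myofibroblasts, the contractile cells that fibroblasts become under TGF-β. They bind collagen and fibronectin on one side and integrins and other cell surface receptors on the other, and several of them bind or activate TGF-β.

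RNA was sequenced from primary cardiac fibroblasts of mice with floxed *Tet3* alleles (*Tet3* f/f, C57BL/6 J background), and TET3 is a dioxygenase that oxidises 5-methylcytosine in DNA. Of 6 libraries, 3 came from cells transduced with an adenovirus coding for GFP (GFP) and 3 from cells transduced with one coding for Cre recombinase (CRE), which the labels call *Tet3* knockout. Both viruses used the CMV promoter and carried EGFP, both groups started from cells with the floxed alleles, and both were treated with TGF-β for a day. The study describes its replicates as biological, but the labels do not say which cultures or animals they came from, and the age of the donors is not given in the sources used here. Untreated cells were not analysed here.

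Total counts were between 17002126 and 20343590 per library. *Tet3* itself, given throughout in the order of replicates 1, 2 and 3, had 1044, 965 and 1000 counts with GFP against 642, 649 and 637 with CRE. Its CRE level was 60.8% of that in GFP, so transcript of the gene remained. Of 10 fibroblast markers all were detected and 9 were lower in CRE, *Thy1* being the one that did not pass the threshold. Their summed level was between 30207 and 31510 CPM in GFP and between 18870 and 20309 CPM in CRE. Most of that sum came from *Col1a1* and *Col1a2*, with GFP means of 13729 and 11568 CPM. The 10 cardiomyocyte markers were at or near 0, with no count above 15 in any library and *Myh6* at 0 in each. Endothelial markers were present and lower in CRE: 9 of 10 passed the threshold, and their summed level was between 463.9 and 520.2 CPM in GFP and between 204.3 and 235.9 CPM in CRE. Smooth muscle and pericyte markers were lower in 5 of 10 and higher in 1 (*Cspg4*), with sums between 174.7 and 194.4 CPM in GFP and between 143.1 and 163.5 CPM in CRE. Of 4 tested epicardial markers, *Wt1* and *Tbx18* were lower and *Krt19* and *Upk3b* higher. The part of these cells in the results that follow was not tested. These are bulk values, so fewer cells of a type and less RNA per cell cannot be told apart.

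Of the 10 matricellular transcripts, 8 were lower in CRE, from *Postn* at 29.0% of its GFP level to *Spp1* at 85.3%, and *Thbs1* and *Tnc* did not pass the threshold. None was higher. A gene was called when the quasi-likelihood test of edgeR gave it an adjusted p below 0.05, and by that rule 25.7% of all tested genes were lower and 25.5% higher. In TMM-scaled CPM the same 8 members had CRE libraries that lay entirely below the GFP libraries, as 29.6% of tested genes did, and no member lay entirely above, as 30% did. With library size alone, and in FPKM, 6 members lay entirely below, *Spp1* and *Comp* overlapped, and *Tnc* lay entirely above. Over all tested genes 18% lay entirely below and 46.5% entirely above with library size alone, and 17.3% and 44% in FPKM. The median log2 fold change of the 10 was -0.44, against 0.01 over all tested genes. The rule of the study, set on DESeq output, asks for a fold below 0.66 and p below 0.05. Applied here to edgeR folds and unadjusted edgeR p-values, it gave 4 of 10 as lower, and 10.3% of all tested genes. None was higher by the counterpart of that rule (a fold above 1.5), as 7.52% were. A log2 fold change below -1 with a call was found in 3 members and in 4.56% of tested genes. *Postn*, *Cthrc1*, *Thbs2*, *Tgfbi* and *Thbs3* were called lower in each of the 17 fits tried, so 5 of the 8 calls held in every fit run. The share of all tested genes called lower in every fit was not counted. In single fits between 1909 and 3379 genes were called lower. *Sparc*, *Spp1* and *Comp* had log2 fold changes of -0.31, -0.23 and -0.26 and lost the call in 2, 3 and 9 of the 16 alternative fits.

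**Figure D1:**
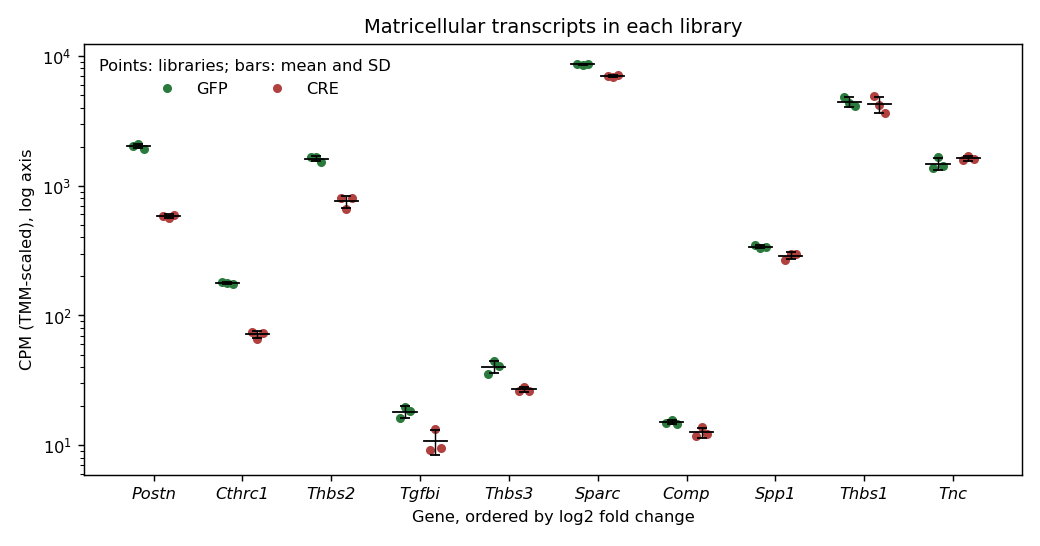
CPM (TMM-scaled counts relative to library size) of the 10 matricellular transcripts on a log axis, with one point per library and the mean ± SD of the 3 libraries of each group. On this scale all CRE points lie below all GFP points in 8 of 10 genes, and *Thbs1* and *Tnc* overlap.

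The fasciclin proteins were examined first. Periostin, encoded by *Postn* (ENSMUSG00000027750, GRCm38 chromosome 3, positions 54361109 to 54391037, plus strand), binds collagen and helps to crosslink it, and it is the usual lineage marker of activated cardiac fibroblasts. Its level was 2015, 2077 and 1933 CPM (TMM-scaled counts relative to library size) with GFP against 585.0, 563.5 and 599.4 CPM with CRE. The spread within a group was small, 3.58% of the mean in GFP and 3.10% in CRE, and the gap between groups was far wider. *Postn* fell by 1.79 on the log2 scale (SE 0.04, 95% confidence interval -1.89 to -1.69, adjusted p of 1.33e-08 in edgeR), and 1.17% of tested genes had a lower log2 fold change.

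*Tgfbi* (ENSMUSG00000035493, chromosome 13, positions 56609523 to 56639562, plus strand) encodes a fasciclin protein of similar build that is named for its induction by TGF-β and binds collagen and integrins. Its level was 16.1, 19.8 and 18.3 CPM in GFP and 9.19, 13.4 and 9.56 CPM in CRE. CRE replicate 2 was the highest of its group and still below the lowest GFP library. *Tgfbi* fell by 0.76 on the log2 scale (SE 0.14, edgeR adjusted p of 0.00139), with between 171 and 353 counts per library. The count of *Postn* per count of *Tgfbi* in the same library, a ratio that library scaling cannot move, was 125.1, 104.7 and 105.4 in GFP and 63.7, 42.0 and 62.7 in CRE. The ratio fell by 1.01 on the log2 scale, with no overlap between groups. An exact two-sided permutation test gave p = 0.1, which is the smallest that 3 against 3 libraries allow.

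Thrombospondins divided into members that fell and one that did not. Thrombospondin-1 (*Thbs1*) and thrombospondin-2 (*Thbs2*) form trimers, share the receptor CD47 and inhibit angiogenesis, and only thrombospondin-1 is well known to activate latent TGF-β. *Thbs2* (ENSMUSG00000023885, chromosome 17, positions 14665500 to 14694235, minus strand) was at 1653, 1652 and 1533 CPM in GFP and at 810.7, 664.2 and 798.0 CPM in CRE. It fell to 47.0% of the GFP mean, a log2 fold change of -1.09 (SE 0.07, edgeR adjusted p of 1.76e-06). *Thbs1* (ENSMUSG00000040152, chromosome 2, positions 118111876 to 118127133, plus strand) was at 4860, 4350 and 4086 CPM in GFP and at 4884, 4176 and 3655 CPM in CRE. Its groups overlapped, since the highest of the 6 libraries and the lowest were both CRE. Its log2 fold change was -0.06 (SE 0.10, 95% confidence interval -0.28 to 0.15, edgeR adjusted p of 0.601), and its sign turned under 5 of 16 alternative fits, none past the threshold.

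The pair was also compared within libraries. Counts of *Thbs1* per count of *Thbs2* were 2.94, 2.63 and 2.66 in GFP and 6.02, 6.29 and 4.58 in CRE. Each CRE ratio was above each GFP ratio, a difference of 1.02 on the log2 scale (exact permutation p = 0.1, the smallest possible). These are counts per gene and not per length, so the ratios show the shift between groups and not how much of each protein is made.

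Thrombospondin-3 (*Thbs3*) and cartilage oligomeric matrix protein (*Comp*) form pentamers, and the latter binds collagen fibrils in tendon, cartilage and fibrotic tissue. *Thbs3* (ENSMUSG00000028047, chromosome 3, positions 89215180 to 89226837, plus strand) was at 35.6, 44.2 and 40.5 CPM in GFP and at 26.3, 28.2 and 26.2 CPM in CRE. It fell by 0.58 on the log2 scale (SE 0.08, edgeR adjusted p of 0.000213), with no overlap between groups. Its exons share 318 of 4823 bases with *Mtx1* on the opposite strand, which had between 247 and 340 counts per library, and whether counting used the strand is not stated.

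*Comp* (ENSMUSG00000031849, chromosome 8, positions 70373558 to 70382066, plus strand) was at 14.9, 15.7 and 14.5 CPM in GFP and at 11.7, 13.8 and 12.1 CPM in CRE. Its log2 fold change was -0.26 (SE 0.09, edgeR adjusted p of 0.0350). The call was lost in 5 of the 6 fits that left out one library, being kept only without CRE replicate 2, with adjusted p up to 0.120 in those fits, and it was lost with DESeq2 (adjusted p of 0.0865) and with library size alone (adjusted p of 0.376). The count of *Comp* per count of *Thbs3* was 0.420, 0.356 and 0.359 in GFP and 0.446, 0.489 and 0.463 in CRE. The ratio was higher in CRE by 0.30 on the log2 scale, with no overlap between groups (exact permutation p = 0.1, the smallest possible). On FPKM values the difference was 0.24 with an exact permutation p of 0.3, so the separation was not kept.

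Tenascin-C (*Tnc*, ENSMUSG00000028364, chromosome 4, positions 63959785 to 64047015, minus strand) is a hexameric glycoprotein that loosens cell adhesion and appears at sites of cardiac injury. Its level was 1370, 1652 and 1423 CPM in GFP and 1573, 1701 and 1596 CPM in CRE. GFP replicate 2 lay within the CRE range and the other two GFP libraries below it. The log2 fold change was 0.13 (SE 0.07, 95% confidence interval -0.02 to 0.28, edgeR adjusted p of 0.126). Without GFP replicate 2 it was 0.21 with an adjusted p of 0.00619, and with library size alone it was 0.29 with an adjusted p of 0.00379, so the call on *Tnc* depends on that library and on the scaling. Library size alone called 43% of all tested genes higher and 16.2% lower. A fit with the replicate number as a block called *Tnc* higher too (adjusted p of 0.0203 in edgeR), along with 25.3% of tested genes, and 26.2% lower. *Tnc* was then set against *Postn* in the same library. Counts of *Tnc* per count of *Postn* were 0.680, 0.796 and 0.736 in GFP and 2.69, 3.02 and 2.66 in CRE, a difference of 1.92 on the log2 scale (exact permutation p = 0.1, the smallest possible).

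**Figure D2:**
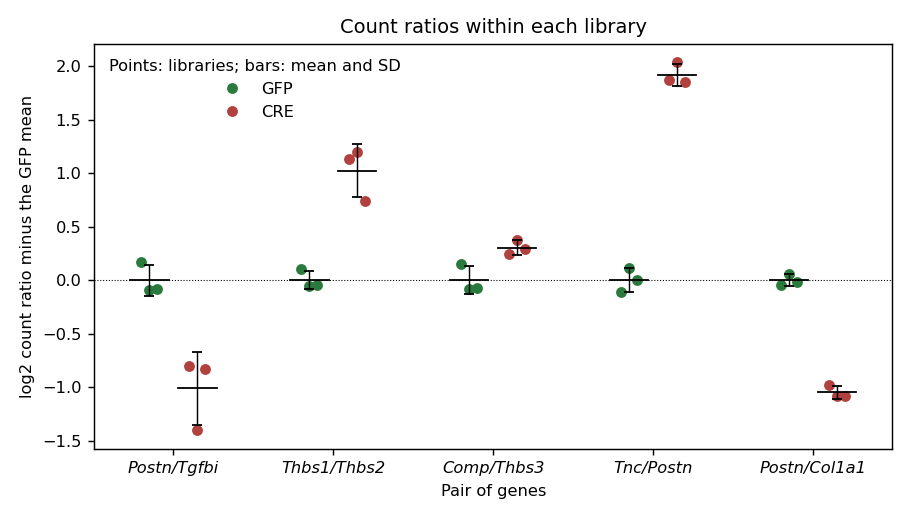
Log2 ratio of the counts of a pair of genes within each library, less the mean of the GFP libraries, with the mean ± SD of the 3 libraries of each group. GFP and CRE do not overlap in any of the 5 pairs, and the widest gap is that of *Tnc*/*Postn* at 1.92.

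SPARC (osteonectin), osteopontin and CTHRC1 belong to other families. SPARC is a collagen-binding glycoprotein needed for collagen fibrils to mature. *Sparc* (ENSMUSG00000018593, chromosome 11, positions 55394500 to 55423183, minus strand) was at 8725, 8574 and 8657 CPM in GFP and at 7024, 6834 and 7093 CPM in CRE. The SD was 0.873% of the mean in GFP and 1.93% in CRE, and *Sparc* fell by 0.31 on the log2 scale (SE 0.03, edgeR adjusted p of 4.93e-05). With library size alone the change was -0.15 and still past the threshold (adjusted p of 0.00388), and on log2(FPKM + 1) values it was -0.15 and no longer past it (limma adjusted p of 0.112).

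Osteopontin, encoded by *Spp1* (ENSMUSG00000029304, chromosome 5, positions 104435118 to 104441050, plus strand), is an integrin ligand made by macrophages as well as fibroblasts. It was at 346.2, 332.4 and 339.7 CPM in GFP and at 269.6, 298.8 and 300.1 CPM in CRE. It fell by 0.23 on the log2 scale (SE 0.05, edgeR adjusted p of 0.00364). Under library size alone it was -0.07 and the call was lost (adjusted p of 0.293). Of 10 macrophage markers, 4 were too low to test, 3 were lower (*Adgre1*, *Cd14* and *Lyz2*) and 3 did not pass the threshold (*Csf1r*, *Itgam* and *Cd68*). Their summed level was between 58.8 and 66.7 CPM in GFP and between 35.1 and 38.5 CPM in CRE, most of it from *Cd14* and *Lyz2*, and *C1qa* and *C1qb* were at no more than 4 counts. *Csf1r* had between 44 and 71 counts per library, *Adgre1* between 19 and 82 and *Cd68* between 27 and 54. The part of macrophages in its change was not tested. A transcript model without a row in the table, *Gm42793*, shares 309 of the 1648 exonic bases of *Spp1* on the same strand.

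CTHRC1 is a secreted protein of activated fibroblasts with a short collagen-like stretch, and its transcript marks the most matrix-rich fibroblasts after infarction. *Cthrc1* (ENSMUSG00000054196, chromosome 15, positions 39076932 to 39087121, plus strand) was at 181.1, 176.4 and 175.9 CPM in GFP and at 75.1, 66.1 and 73.0 CPM in CRE. It fell to 40.1% of the GFP mean, a log2 fold change of -1.32 (SE 0.05, edgeR adjusted p of 1.83e-07), and it was second only to *Postn* among the 10.

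**Figure D3:**
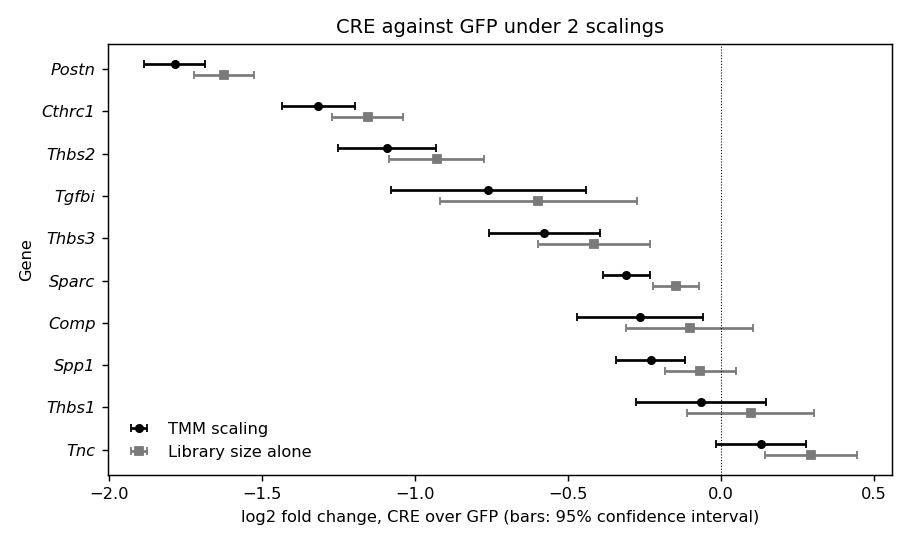
Log2 fold change of CRE over GFP for each matricellular gene with its 95% confidence interval, under TMM scaling (black circles) and under library size alone (grey squares). The intervals of *Postn*, *Cthrc1*, *Thbs2*, *Tgfbi*, *Thbs3* and *Sparc* stay below 0 under both, those of *Spp1* and *Comp* reach past 0 under library size alone, and that of *Tnc* then lies above 0.

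The scaling matters for the smaller changes. Scaling by library size alone put the all-gene median 0.16 higher (log2) than TMM did, and 72.6% of calls were then higher in place of 49.8%. The share of all counts was also examined, which is scaled by library size alone. The 10 matricellular transcripts took 1.81%, 1.79% and 1.72% of the counts in GFP and 1.61%, 1.52% and 1.498% in CRE. No CRE share reached a GFP share, and the means were 1.77% ± 0.0456 and 1.54% ± 0.0561 (SD, n = 3), with an exact permutation p of 0.1, the smallest possible. The difference of the means was -0.231 percentage points, and that of *Postn* alone was -0.128. Without *Postn* the groups met, at 1.62%, 1.59% and 1.54% in GFP and 1.54%, 1.47% and 1.43% in CRE (exact permutation p = 0.2).

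Levels of different genes were compared on the FPKM scale, which allows for transcript length. In GFP the order from the top was *Sparc* at 3767 ± 46.4, *Thbs1* at 716.0 ± 62.5, *Postn* at 624.2 ± 21.5, *Thbs2* at 258.5 ± 10.7, *Spp1* at 227.2 ± 4.55, *Tnc* at 197.4 ± 20.1 and *Cthrc1* at 145.7 ± 2.998 FPKM (SD, n = 3). *Thbs3*, *Comp* and *Tgfbi* followed at 12.1, 6.33 and 6.30 FPKM, and of all neighbours only *Comp* and *Tgfbi* overlapped. In CRE *Sparc* and *Thbs1* kept the top places at 3400 ± 74.7 and 766.0 ± 109 FPKM. *Tnc* came next at 241.9 ± 11.2 FPKM, and *Postn*, at 203.8 ± 6.84 FPKM, was the fifth and overlapped *Spp1* at 217.0 ± 14.0 FPKM (SD, n = 3).

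Promoter sequence is shown for the 2 abundant transcripts that fell by more than 1 on the log2 scale and have a window in the table, and for *Tnc*, which did not fall. Each is the 250 bases before the RefSeq start site nearest to the GENCODE start of the gene (GRCm38.p6), read 5′ to 3′ on the strand of the gene. Capitals mark matches, on either strand, to a TATA motif (TATAAA) or a SMAD-binding motif (CAGACA).
Postn (chr3:54360857-54361106, plus strand): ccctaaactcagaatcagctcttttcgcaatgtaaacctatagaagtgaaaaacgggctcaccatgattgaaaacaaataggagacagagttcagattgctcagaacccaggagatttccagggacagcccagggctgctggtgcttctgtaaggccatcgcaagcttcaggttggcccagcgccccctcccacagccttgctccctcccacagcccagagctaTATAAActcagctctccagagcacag
Thbs2 (chr17:14694263-14694512, minus strand): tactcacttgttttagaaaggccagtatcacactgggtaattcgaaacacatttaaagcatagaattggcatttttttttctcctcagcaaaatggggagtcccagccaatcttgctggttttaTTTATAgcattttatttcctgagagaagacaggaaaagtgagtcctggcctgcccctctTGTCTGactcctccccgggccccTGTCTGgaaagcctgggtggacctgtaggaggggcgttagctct
Tnc (chr4:64047016-64047265, minus strand): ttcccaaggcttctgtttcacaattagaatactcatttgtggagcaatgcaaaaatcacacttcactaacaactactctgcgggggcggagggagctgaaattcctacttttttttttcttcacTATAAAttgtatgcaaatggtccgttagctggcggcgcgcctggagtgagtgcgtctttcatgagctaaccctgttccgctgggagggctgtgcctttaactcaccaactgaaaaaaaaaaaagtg

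*Postn* has its TATA match 26 bases before the start, and *Tnc* and *Thbs2* have theirs 126 bases before it. *Thbs2* has 2 SMAD motif matches, 67 and 44 bases before the start. The *Tnc* window shown has none, but a second RefSeq start of *Tnc*, 79 bases further inside the gene, has a SMAD match 71 bases before it. *Thbs1*, *Comp* and *Cthrc1* have no window in the table. Of the 7 matricellular genes with a window, taking for each the window nearest to its GENCODE start, 4 hold the TATA motif and 3 the SMAD motif, where 12.4% and 17.1% of 32851 windows do. None of these 7 windows holds an AP-1 motif (TGANTCA), a TEAD motif (CATTCC) or a CArG box, the motif bound by SRF. These motifs occur in 6.75%, 12.6% and 1.47% of windows. The 250 bases hold 4 CpG dinucleotides in *Postn*, 3 in *Thbs2* and 8 in *Tnc*, against a median of 6 over all windows and 15 in *Tgfbi*. A match is only a run of letters. The window of *Sparc* starts 3103 bases inside the GENCODE gene, so its letters are not those before the gene's first start.

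Genes of the same protein families were followed next, from a list of 17. Of these, 8 had enough counts to be tested, 5 were lower and 3 were not called in either direction, where 25.7% of all tested genes were lower and 25.5% higher, with a median log2 fold change of -0.75. *Sparcl1* (hevin, the closest relative of SPARC) had 199, 204 and 220 counts in GFP and 50, 51 and 49 in CRE, a log2 fold change of -2.12 (SE 0.12). *Smoc1*, another SPARC relative, fell by 1.32 (SE 0.06), and *Thbs4*, the third of the pentameric thrombospondins, by 1.47 (SE 0.39) at no more than 23 counts per library. *Stab1*, a scavenger receptor with fasciclin domains, fell by 0.94 (SE 0.08). *Sparcl1* and *Stab1* are also made by endothelial cells, whose markers were lower in CRE as given above, and the part of those cells was not tested. *Tnxb*, *Tnr* and *Smoc2* had log2 fold changes of -0.56, 0.38 and 0.19 with edgeR adjusted p of 0.138, 0.157 and 0.0632. The 9 relatives that were not tested, among them *Ibsp*, *Dmp1* and the 3 *Spock* genes, had at most 19 counts in any library.

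Receptors for these proteins were followed in a list of 19. Of the 18 tested, 9 were lower, 3 were higher and 6 did not pass the threshold, against 25.7% lower and 25.5% higher over all tested genes, with a median log2 fold change of -0.17. The 3 that rose were integrin subunits. With library size alone 6 of 18 receptors were called higher, where 43% of all tested genes were. *Itga5*, which pairs with β1 as the fibronectin receptor, rose from 465.5 ± 28.8 to 777.4 ± 52.6 CPM (SD, n = 3), or by 0.74 on the log2 scale (SE 0.06). *Itga3* rose by 1.07 (SE 0.07) and *Itgb3*, a partner of αv in binding osteopontin and periostin, by 0.68 (SE 0.06). *Itgb8* fell by 1.72 (SE 0.15), *Itga4* fell by 1.08 (SE 0.07), and *Itga9*, which binds tenascin-C and osteopontin, fell by 0.55 (SE 0.07). *Cd36*, a thrombospondin receptor also found on endothelial cells, fell by 2.13 (SE 0.43) from at most 35 counts per library. *Itgav*, *Itgb5*, *Cd44* and *Cd47* did not pass the threshold, with log2 fold changes of -0.02, -0.05, -0.09 and -0.20 and edgeR adjusted p of 0.720, 0.348, 0.241 and 0.0594.

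Of 20 matrix proteins, growth factors and enzymes that bind or cut the matricellular proteins, 16 were lower and 4 were not called in either direction, with a median log2 fold change of -0.55. The share of all tested genes was again 25.7% lower and 25.5% higher. *Col1a1*, *Col1a2* and the receptor *Ddr2* are also among the 10 fibroblast markers. *Acan* (aggrecan) fell by 3.28 (SE 0.17) to 0.988 ± 0.179 CPM, *Eln* (elastin) fell by 2.30 (SE 0.14) and *Adamts1*, a metalloprotease of the matrix, fell by 1.86 (SE 0.11). *Fn1* (fibronectin), which binds periostin and tenascin-C, fell by 1.14 (SE 0.05) from 16137 ± 1067 CPM (SD, n = 3), and *Col3a1* fell by 1.25 (SE 0.08). *Bmp1*, the procollagen protease that periostin anchors, and *Tgfb1*, the cytokine that thrombospondin-1 activates, had log2 fold changes of 0.04 and 0.11 with edgeR adjusted p of 0.554 and 0.175. *Col1a1* fell by 0.74 (SE 0.05). Counts of *Postn* per count of *Col1a1* were 0.142, 0.152 and 0.145 in GFP and 0.0743, 0.0689 and 0.0690 in CRE, a difference of -1.05 on the log2 scale (exact permutation p = 0.1, the smallest possible). The 5 ratios tested had a Benjamini-Hochberg adjusted p of 0.1 each.

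**Figure D4:**
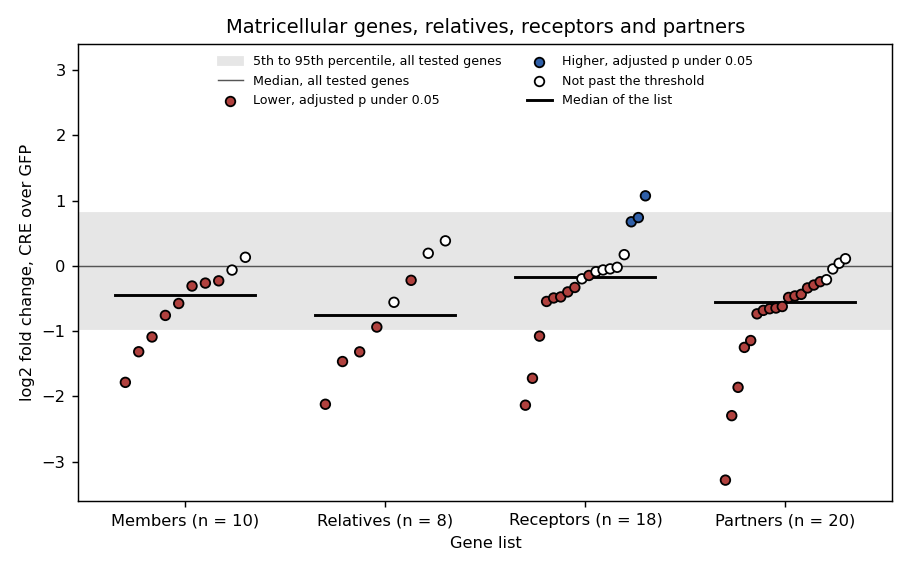
Log2 fold change of CRE over GFP for each tested gene of 4 lists: the matricellular members, their protein relatives, their receptors and their binding partners. Red and blue points passed an adjusted p of 0.05, white points did not, black lines are list medians (-0.44, -0.75, -0.17 and -0.55) and the grey band runs from -0.96 to 0.81, the 5th and 95th percentiles of all tested genes.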

How the data were processed

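RNA-seq of 6 libraries was analysed, 3 GFP and 3 CRE, grouped by sample title. The methods of the study name Trimmomatic for trimming, HISAT2 for alignment (GRCm38), HTSeq-count for counting and Cufflinks for FPKM. Versions and the strand setting are not given in the sources used here. The labels and the methods name different RNA and library kits. Raw counts and FPKM values were deposited by the authors for each library, with group means of FPKM. The deposited log2 fold change, p-value and false discovery rate hold the authors' own comparison and were not used.

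Counts were tested in R 4.3.3 with edgeR 4.0.16: filterByExpr (minimum count 10, minimum total 15), TMM scaling (GFP factors 0.944 to 0.947, CRE factors 1.05 to 1.06), and the two-sided quasi-likelihood test, with Benjamini-Hochberg adjustment over 12862 genes. SE was derived from the fold change and the F value. Coordinates are from GENCODE M21. Alternatives were RLE size factors, library size alone, upper-quartile scaling, other count filters, DESeq2 1.42.0, limma 3.58.1 on voom and FPKM values, a replicate block and leaving out each library. In data simulated from this comparison (12862 genes, 10 sets) the test recovered 76.0% of genes changed by 1.5 and 72.4% of those changed by 0.66. Of the calls, 8.45% were unchanged genes. Far fewer genes were changed in each set than were called in the real libraries, so these rates may not hold for the real libraries. No 2 libraries of a group agreed within sampling noise (chi-square over its degrees of freedom, 4.05 to 12.1). P-values measure the spread between these libraries, which may be technical.

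The genes and lists were chosen with earlier results of these data known. Genes named are the members, *Tet3*, and from each list preferably the 4 lowest and 4 highest changes past the threshold, and the 5 genes nearest to *Postn*. Others (cell type markers, *Mtx1*, *Gm42793* and genes that did not pass the threshold) were chosen after their values were seen.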

Additional observations from a re-analysis of the deposited data

How the results depend on the processing

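Over the 10 matricellular genes and 16 alternative fits, 136 of 160 log2 fold changes kept their direction and their side of the threshold, 14 lost the call, 5 gained it and 5 turned sign. The 5 that turned were all *Thbs1*, at 0.097 with library size alone, 0.091 on both log2(FPKM + 1) and log2(FPKM + 0.1) values, 0.0048 without GFP replicate 1 and 0.035 without CRE replicate 3, and leaving out a library moved it between -0.17 (without CRE replicate 1) and 0.035, never past the threshold. Lower members numbered 6 under library size alone, 5 in either FPKM fit, and 7 to 8 when a library was left out. In the fits that left out a library, 2874 to 3303 genes were lower in all. With library size alone 1 member, 2 relatives, 6 receptors and 2 partners were higher, and 5529 genes were higher and 2083 lower in all. On log2(FPKM + 1) values 1 member, 1 relative, 6 receptors and 2 partners were higher, with 4976 genes higher and 1916 lower. On log2(FPKM + 0.1) values the list counts were again 1, 1, 6 and 2, with 4989 genes higher and 1909 lower. For library size alone this follows from the scaling itself, and for FPKM the cause was not tested. Upper-quartile scaling called 1 relative higher (*Smoc2*), with 3482 of 12862 genes higher and 3124 lower in all. Leaving out a library gave 0 to 1 member, 0 to 2 relatives and 0 to 1 partner higher, with 2735 to 3214 of 12862 genes higher in all.

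Whether replicate numbers pair the libraries is unclear: deviations from the group mean correlated at 0.046, 0.180 and -0.018 for the same numbers. The value of 0.180, for replicate 2, was the highest of any GFP and CRE library. GFP replicate 1 correlated best with CRE replicate 3 (0.071), and GFP replicate 3 with CRE replicate 1 (0.066). With the replicate number as a block, 8 members were lower and 1 was higher (*Tnc*, adjusted p of 0.0203), and of all tested genes 25.3% were higher and 26.2% lower. In the other lists 6 relatives were lower and 2 higher, 9 receptors lower and 4 higher, and 17 partners lower. The mean paired difference in the share of counts, -0.231 percentage points, equals the difference of the group means by arithmetic, so pairing could not change it. Each of the 5 count ratios kept its direction in FPKM, though *Comp*/*Thbs3* was no longer separated there (0.24, exact permutation p of 0.3). Leaving out a library could not turn the direction of any count ratio, since the groups did not overlap in any of the 5. *Comp* and *Tgfbi*, at 171 to 353 counts per library, were measured with the least depth.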

Other observations

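The 5 genes whose profile over the 6 libraries lay nearest to that of *Postn*, out of 8807 with a mean of at least 10 CPM, were *Grem1*, *Cemip*, *Akap6*, *Garem2* and *Ism1*. Likeness was the Euclidean distance between log2 CPM values centred on each gene's mean, and it ran from 0.11 for *Grem1* to 0.20 for *Ism1*. *Grem1*, a secreted BMP antagonist, had 474, 576 and 531 counts in GFP and 166, 146 and 166 in CRE. *Cemip*, a hyaluronan-degrading protein, had the most counts of the 5, with 26369, 28904 and 31980 counts in GFP and 8815, 7840 and 9593 in CRE. The distance is set mostly by the difference between groups, so genes near *Postn* have a similar fold change by construction. Among the matricellular genes the nearest to *Postn* was *Cthrc1* at a distance of 0.58, which ranked 62 among those 8807 genes, followed by *Thbs2* at 0.86, and *Tnc* was the farthest at 2.36.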
